A study of Homo sapiens with 6 samples.

Results

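The genes of hyaluronan synthesis, breakdown and reception were followed in ES2 cells, a human ovarian cancer line labelled as high-grade serous carcinoma, after knockdown of UAP1. Hyaluronan is a long, unsulfated glycosaminoglycan of alternating glucuronic acid and N-acetylglucosamine, spun out at the plasma membrane by hyaluronan synthases (HAS1, HAS2 and HAS3) from UDP-glucuronic acid and UDP-N-acetylglucosamine. UGDH makes the first of these nucleotide sugars, and UAP1 catalyses the last step to the second. The polymer is cut by hyaluronidases (HYAL1 and HYAL2) and degraded with the help of the secreted hyaluronan-binding protein CEMIP. At the cell surface it is bound by CD44 and layilin (LAYN), and in ovarian cancer CD44 is known for attaching tumour cells to the hyaluronan coat of the peritoneum. The 9 genes HAS1, HAS2, HAS3, UGDH, CD44, HYAL1, HYAL2, CEMIP and LAYN were chosen by name for their roles. The choice was made with earlier results of these data known. They were matched by gene symbol in the deposited table of 58735 genes. Of the 9, 8 had enough counts to be tested, and HAS1, with 0 counts in every library, was too low.

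The study set 3 libraries of ES2 cells transfected with UAP1 siRNA (siUAP1) against 3 libraries of the same line transfected with a control siRNA (control). Small interfering RNAs (siRNAs) are short duplexes that direct the destruction of matching mRNA. All cells were grown in serum-supplemented medium, received the same lipid reagent, had their medium replaced 6 hours after transfection and gave RNA at 48 hours. The labels list 2 UAP1 siRNAs without saying whether they were pooled, and call the untargeted cells WT. Whether each replicate was its own culture is not stated, and the spread that p-values rest on here may therefore be technical.

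The libraries held 23727266 to 25972582 counts in siUAP1 and 21267240 to 25054159 in control, and 15768 genes could be tested. UAP1 itself was at 21.8, 23.3 and 25.2 CPM (a library's counts scaled to a common total) in siUAP1 replicates 1 to 3, against 345.3, 357.0 and 444.4 CPM in control replicates 1 to 3 (log2 fold change -4.02 with replicate numbers paired, edgeR adjusted p = 1.67e-25). The knockdown was thus seen in all 3 siUAP1 libraries. Of 8 markers of serous ovarian carcinoma, 5 could be tested: the keratin genes KRT7, KRT8 and KRT18 were abundant, PAX8 (0.55 to 2.51 CPM) and WT1 (1.3 to 2.46 CPM) were low, and MUC16 had 0 counts. EPCAM and MSLN, also among the 8 markers, had 6 counts each over all libraries. The summed level of these markers was 1118 to 1419 CPM in siUAP1 and 797.9 to 895.6 CPM in control libraries, and its part in the results below was not tested. Nearly all of that sum came from the keratin genes. Compared within replicate numbers, KRT7, KRT8 and KRT18 were called higher in siUAP1 (log2 fold changes 0.58, 0.78 and 0.50). PAX8 (0.55) and WT1 (-0.20) were not called. None of 5 leukocyte markers could be tested. Of 3 endothelial markers, the cadherin gene CDH5 was at 129.8 to 171.3 CPM and PECAM1 at 0.778 to 2.85 CPM. VWF, at 0.287 to 1.67 CPM, was not tested. Of 3 fibroblast markers, PDGFRA was at 28.9 to 57.2 CPM, while DCN (0 counts) and LUM (7 counts over all libraries) could not be tested. In such bulk RNA, fewer cells with a transcript and less transcript per cell cannot be told apart.

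The comparison asked how these genes differed with UAP1 knocked down. CEMIP (1.95-fold) and LAYN (1.21-fold) were called higher in siUAP1 once libraries were compared within replicate numbers, and CD44, UGDH, HAS2, HAS3, HYAL1 and HYAL2 gave no call. A like direction at all 3 numbers was more common than a call: 5 of the 8 genes (CEMIP, LAYN, UGDH, HYAL1 and HYAL2) were higher in siUAP1 at each number and 1 (HAS3) was lower at each, as were 3695 and 3722 of the 15768 tested genes. With the groups alone, edgeR called 0 of the 8 tested genes at an adjusted p under 0.05, where 0.108% of all tested genes were called (0.0317% higher and 0.0761% lower in siUAP1). None of the 8 had an unadjusted p under 0.05 in that fit, and DESeq2 on the groups alone also called 0. Libraries sharing a replicate number varied together: their deviations from the group means correlated at 0.552, 0.454 and 0.584 over tested genes. The labels do not state that the numbers pair libraries. Blocking on the number, which sets siUAP1 against control inside each number, 2 of the 8 rose (CEMIP and LAYN) and 0 fell. In that fit 16.2% of all tested genes were called, 9.07% up and 7.14% down, and 2 of 8 genes is too few to set apart from that background. The median log2 fold change was 0.112 over the 8 genes and -0.003 over all tested genes. The groups alone had been set as the main fit, and the block as an alternative to it. Below, rose and fell refer to the fit with the block, and fold changes are from that fit unless the groups alone are named. In 0 of the 8 genes were the CPM of the 2 groups free of overlap, against 12.4% of all tested genes (6.74% higher and 5.71% lower in siUAP1).

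**Figure D1:**
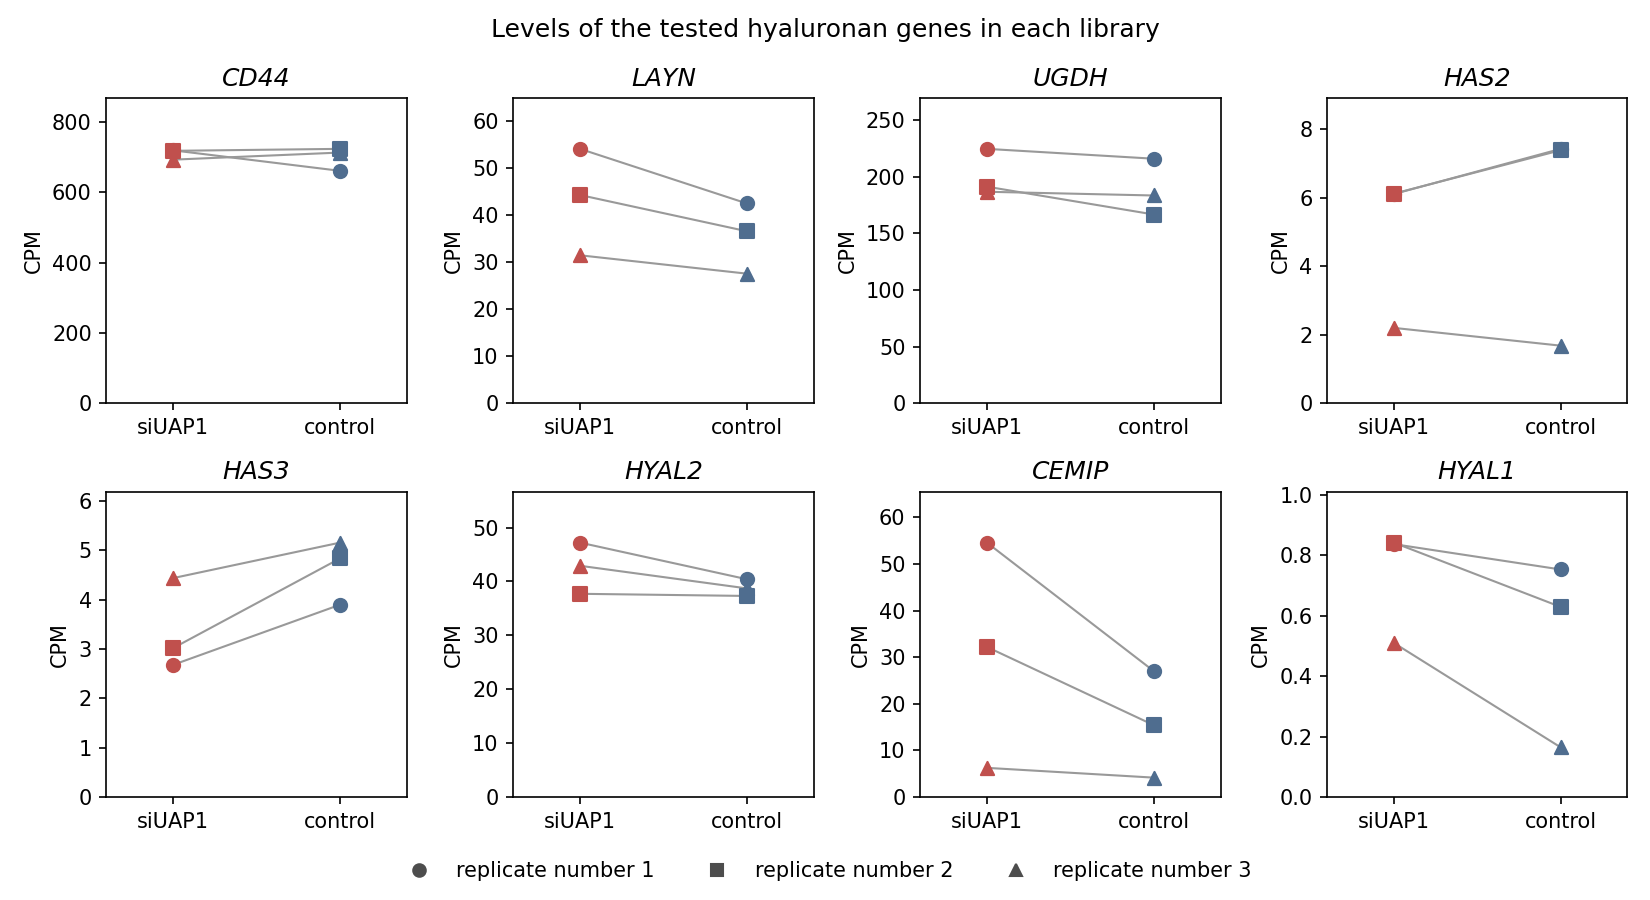
CPM (vertical axis, linear, from 0) of the 8 tested genes in siUAP1 libraries (left, red) and control libraries (right, blue), 3 libraries each, with a grey line joining libraries of the same replicate number. CEMIP, LAYN, UGDH, HYAL1 and HYAL2 are higher in siUAP1 along all 3 lines, HAS3 is lower along all 3, and the CEMIP values of the replicate numbers stand far apart.

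Of the nucleotide sugar enzymes, UGDH, which oxidises UDP-glucose to UDP-glucuronic acid, was abundant. It had 224.7, 191.3 and 186.8 CPM in siUAP1 replicates 1 to 3, against 216, 166.7 and 183.5 CPM in control replicates 1 to 3. The groups overlapped, and each siUAP1 library lay slightly above the control library of its number. The log2 fold change with the block was 0.09 (SE 0.0483, 95% interval -0.01 to 0.19, edgeR adjusted p = 0.212). UGDH is annotated on GRCh38 chromosome 4, 39498755 to 39528311, minus strand.

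The hyaluronan synthases were lowly expressed. HAS2, known as the main synthase of mesenchymal cells, had 6.11, 6.12 and 2.2 CPM in siUAP1 replicates 1 to 3, against 7.43, 7.39 and 1.68 CPM in control replicates 1 to 3. Replicate 3 was low in both groups, by more than any difference between the groups. HAS2 was lower in siUAP1 at replicate numbers 1 and 2 (ratios 0.822 and 0.829) and higher at number 3 (1.31), and its log2 fold change was -0.13 (SE 0.172, 95% interval -0.49 to 0.22, edgeR adjusted p = 0.679). With the groups alone it was -0.19 (SE 0.549, adjusted p = 0.992). Its antisense transcript gene HAS2-AS1 overlaps it on the opposite strand and was at 1.1 CPM in siUAP1 and 0.694 CPM in control on average, with 0.205 CPM in control replicate 3 as its lowest value. HAS2-AS1 was not called (log2 0.75, SE 0.414, edgeR adjusted p = 0.245). It shares 201 exonic bases (5.69% of its exons) with the more abundant HAS2, so its count is uncertain.

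HAS3, a synthase known for making shorter chains, had 2.68, 3.02 and 4.44 CPM in siUAP1 replicates 1 to 3, against 3.9, 4.84 and 5.16 CPM in control replicates 1 to 3. It was lower in siUAP1 at all 3 numbers, with ratios of 0.686, 0.625 and 0.86, while the highest siUAP1 library exceeded the lowest control library. The log2 fold change was -0.47 with the block (SE 0.183, 95% interval -0.85 to -0.09, unadjusted p = 0.0169) and missed the threshold after adjustment over all genes (edgeR adjusted p = 0.0847). With the groups alone it was -0.46 (adjusted p = 0.847). HAS3 shares 365 exonic bases (6.9% of its exons) with CHTF8 on the opposite strand, which was far more abundant (91.8 CPM on average, against 4.01 CPM for HAS3), so that the HAS3 count is uncertain. CHTF8 had a log2 fold change of 0.04.

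HAS1 had 0 counts in all 6 libraries. A count of 0 allows up to 3 counts a library, or 0.116 to 0.126 CPM in siUAP1 and 0.12 to 0.141 CPM in control libraries, so no fold change is given. Per kilobase of gene length, the 3 synthase genes together came to 1.94, 2.02 and 1.35 FPKM (counts scaled to gene length and library total) in siUAP1 replicates 1 to 3, against 2.5, 2.64 and 1.37 FPKM in control replicates 1 to 3. The sums averaged 1.77 ± 0.365 FPKM in siUAP1 and 2.17 ± 0.696 FPKM in control (SD, n = 3 each), and the groups overlapped. Within each replicate number the sum was lower in siUAP1, by least at number 3, and this difference was not tested.

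The make-up of the synthase pool followed the replicate number. HAS2 gave 74.2%, 71.9% and 38.5% of the HAS FPKM in siUAP1 replicates 1 to 3, against 70.6%, 65.9% and 29.1% in control replicates 1 to 3. HAS2 thus predominated at numbers 1 and 2, and HAS3 at number 3, in both groups. These shares carry the uncertainty of the HAS3 count, given the exonic bases it shares with CHTF8. In raw counts the HAS2 share was 33.1% (95% Wilson interval 26.5 to 40.5%) in siUAP1 replicate 3 and 24.6% (18.6 to 31.6%) in control replicate 3. At number 1 it was 69.5% (63 to 75.4%) in siUAP1 and 65.6% (59.4 to 71.3%) in control, and at number 2 it was 66.9% (60.8 to 72.6%) in siUAP1 and 60.5% (54.9 to 65.7%) in control. The intervals cover counting error only, and those of siUAP1 and control overlapped at every number. The HAS2 share was nonetheless higher in siUAP1 at each number, and this difference was not tested.

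Among the degrading genes, CEMIP, a secreted protein known for binding hyaluronan and promoting its depolymerisation, showed both the largest group difference of the 8 genes and a wide spread between replicate numbers. It had 54.6, 32.2 and 6.24 CPM in siUAP1 replicates 1 to 3 (counts of 1305, 842 and 159), against 27, 15.4 and 4.14 CPM in control replicates 1 to 3 (counts of 573, 391 and 101). The siUAP1 library was higher at each number, by ratios of 2.03, 2.1 and 1.51, yet siUAP1 replicate 3 lay below control replicates 1 and 2. CEMIP rose with the block (log2 fold change 0.96, 1.95-fold, SE 0.0931, 95% interval 0.77 to 1.15, edgeR adjusted p = 3.45e-08, higher in 3 of 3 pairs). Without pair 1, 2 or 3 the blocked log2 fold change was 0.91, 0.89 or 1.04, and each was called. With the groups alone the fold change was about as large and was not called (log2 1.01, SE 0.747, 95% interval -0.69 to 2.70, adjusted p = 0.921). That value rests on the libraries taken: it was 0.32 without siUAP1 replicate 1, 0.55 without control replicate 3, 1.49 without siUAP1 replicate 3 and 1.66 without control replicate 1. Within a group, the highest CEMIP library stood 8.75-fold above the lowest in siUAP1 and 6.52-fold in control.

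CEMIP lies on GRCh38 chromosome 15, 80779343 to 80951776, plus strand. Its exons share 224 bases (2.94%) with those of MESD on the opposite strand, a gene whose CPM averaged 55.9 and whose log2 fold change was 0.05 (adjusted p = 0.677). Of the 9 genes, 7 have a promoter window in the RefSeq table used (build GRCh38.p14), and 2 windows are shown for their contrast in these cells: that of CEMIP, which rose, and that of HAS1, without a read. Each is the part of the window that lies before the first annotated base of the gene, 5′ to 3′ on the gene's strand (CEMIP, chr15:80779120-80779342, plus strand; HAS1, chr19:51723995-51724241, minus strand), with capitals for a motif match.
CEMIP: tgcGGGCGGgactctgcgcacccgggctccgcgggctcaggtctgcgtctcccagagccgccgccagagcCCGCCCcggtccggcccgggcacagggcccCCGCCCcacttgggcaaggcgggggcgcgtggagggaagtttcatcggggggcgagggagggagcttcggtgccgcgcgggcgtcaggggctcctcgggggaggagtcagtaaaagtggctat
HAS1: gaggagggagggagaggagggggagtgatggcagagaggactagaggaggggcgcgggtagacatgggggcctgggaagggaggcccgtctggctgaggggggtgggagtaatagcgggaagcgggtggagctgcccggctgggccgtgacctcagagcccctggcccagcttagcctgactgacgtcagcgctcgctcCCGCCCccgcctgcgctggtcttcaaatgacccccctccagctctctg
Both stretches are rich in G and C (74.9% of 223 bases with 25 CpG pairs at CEMIP, 68.8% of 247 bases with 13 CpG pairs at HAS1). Searched on both strands, the GC box GGGCGG matched 3 times at CEMIP and 1 time at HAS1, and it occurs in 39.3% and 42.3% of all 35116 promoter windows cut to the lengths of the CEMIP and HAS1 stretches. The other motifs searched, TATAAA, the E-box CACGTG, the AP-1 word TGANTCA, the TEAD word GGAATG and CCAAT, had 0 matches in either stretch. They occur in 8.25%, 5.49%, 6.05%, 10.8% and 30.1% of all windows cut to the CEMIP length. Since only the GC box matched, no matches of different motifs overlap.

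HYAL2, a hyaluronidase anchored to the cell surface that cuts long chains, differed little. It had 47.2, 37.7 and 42.9 CPM in siUAP1 replicates 1 to 3, against 40.4, 37.3 and 38.7 CPM in control replicates 1 to 3. The groups overlapped, and the log2 fold change was 0.13 (SE 0.0655, 95% interval -0.01 to 0.26, edgeR adjusted p = 0.2). HYAL2 shares 509 exonic bases (11.2% of its exons) with TUSC2 on the same strand, so its count is uncertain. HYAL1, the lysosomal hyaluronidase, was close to the limit of detection, with 20, 22 and 13 counts in siUAP1 replicates 1 to 3, against 16, 16 and 4 counts in control replicates 1 to 3. Its log2 fold change of 0.58 had an SE of 0.449 and a 95% interval of -0.35 to 1.50 (edgeR adjusted p = 0.447). HYAL1 was thus not called, and the wide interval allows a rise as well as a small fall. With the groups alone the log2 fold change was 0.51 (SE 0.553, adjusted p = 0.969). Control replicate 3 had only 4 counts, and the value was 0.08 with the groups alone without that library and 0.29 with the block without pair 3. HYAL2 made up 58.3%, 64.8% and 90.6% of the summed FPKM of HYAL1, HYAL2 and CEMIP in siUAP1 replicates 1 to 3, against 70.2%, 78.7% and 93.5% in control replicates 1 to 3, and the share was lower in siUAP1 at each number, as CEMIP was higher.

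Of the receptors, CD44 was the most abundant of the 9 genes and varied least between libraries. It had 719, 717.6 and 692.5 CPM in siUAP1 replicates 1 to 3, against 660.7, 723.2 and 712.7 CPM in control replicates 1 to 3. It averaged 709.7 ± 14.9 CPM in siUAP1 and 698.9 ± 33.4 CPM in control (SD, n = 3 each), and the groups overlapped. The log2 fold change with the block was 0.02 (SE 0.0478, edgeR adjusted p = 0.812), with a 95% interval from -0.08 to 0.12. CD44 (GRCh38 chromosome 11, 35138870 to 35232402, plus strand) has 39 transcripts in GENCODE 29, of which 26 are annotated as protein-coding, and its pre-mRNA is known for variable exons. A count per gene sums over them, so a shift between the standard and the variant forms would not appear in these values.

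LAYN encodes layilin, a membrane C-type lectin that binds hyaluronan and the cytoskeletal protein talin. It had 54.0, 44.2 and 31.4 CPM in siUAP1 replicates 1 to 3, against 42.4, 36.5 and 27.5 CPM in control replicates 1 to 3. Each siUAP1 library was above the control library of its number, by ratios of 1.27, 1.21 and 1.14, although the groups overlapped. LAYN rose with the block (log2 fold change 0.28, 1.21-fold, SE 0.0655, 95% interval 0.14 to 0.41, edgeR adjusted p = 0.00408, higher in 3 of 3 pairs) and was not called with the groups alone (log2 0.29, SE 0.214, adjusted p = 0.921). The value with the groups alone was 0.10 without siUAP1 replicate 1, 0.13 without control replicate 3 and 0.47 without siUAP1 replicate 3. With the block it was 0.24, 0.27 and 0.31 without pairs 1, 2 and 3, and each was called. DESeq2 with the block gave adjusted p = 0.0493, close to the threshold. LAYN lies on GRCh38 chromosome 11, 111540280 to 111561745, plus strand.

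**Figure D2:**
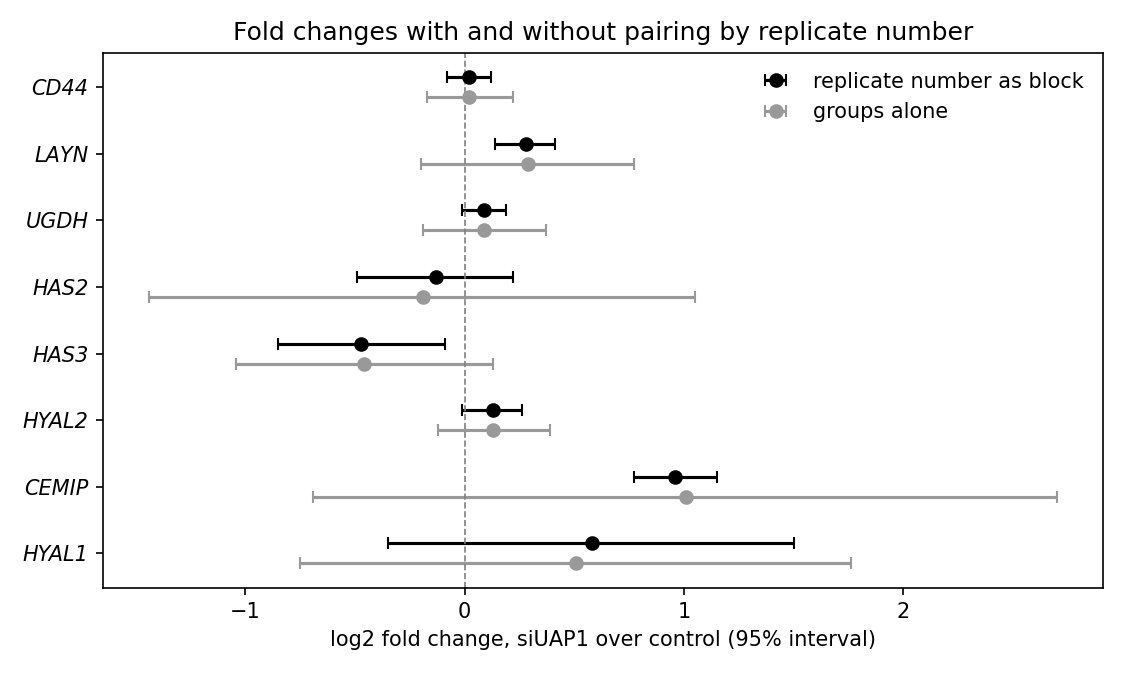
Log2 fold change of siUAP1 over control (horizontal axis) with its 95% interval for the 8 tested genes, from edgeR with the replicate number as a block (black) and with the groups alone (grey), 3 libraries a group. The point estimates hardly move between the fits, and the interval of CEMIP runs from 0.77 to 1.15 with the block and from -0.69 to 2.70 without it.

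Set in order of level per gene length, averaged over all 6 libraries, CD44 (69.8 FPKM) and UGDH (47.7 FPKM) led, ranking 548 and 817 among the 15768 tested genes. LAYN (12.4 FPKM), HYAL2 (8.87 FPKM), CEMIP (3.02 FPKM), HAS2 (1.22 FPKM), HAS3 (0.751 FPKM) and HYAL1 (0.197 FPKM) followed, and HAS1 was listed at 0. The ranges of LAYN and HYAL2, of CEMIP and HAS2, and of HAS2 and HAS3 overlapped within both groups, whereas those of the other neighbours in this order did not. Compared inside a library, LAYN stood above HYAL2 and CEMIP above HAS2 in 6 of 6 libraries, and HAS2 stood above HAS3 in 4 of 6.

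Differences between replicate numbers took a larger share than those between siUAP1 and control in all of the 8 genes but HAS3. Of the sum of squares of log2 CPM over the 6 libraries, the replicate number took 96.6% for HAS2, 87.7% for CEMIP, 82.9% for UGDH and 81.1% for LAYN. The group took 0.118% for HAS2, 11.6% for CEMIP, 10.4% for UGDH and 17.9% for LAYN. For HYAL1 the number took 66.4% and the group 20.1%, and for HYAL2 the number took 56.9% and the group 29.5%. The median over all tested genes was 65.6% for the number and 12.4% for the group. HAS2 thus stood above 95.4% of all tested genes in the share of its replicate number, and CEMIP above 79.8%. For HAS3 the group took 47.8% and the number 44.6%. CD44 differed, with 32.8% between numbers, 6.43% between groups and 60.7% in neither. The total of squares there is small, since its CPM spanned 1.04-fold in siUAP1 and 1.09-fold in control.

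HAS2, HYAL1, CEMIP and LAYN all had their lowest CPM in replicate 3 of both groups. That makes 4 of the 8 genes, where 21.8% of all tested genes did so. HAS3 went the other way, with its highest CPM in replicate 3 of both groups. CHTF8, which shares exonic bases with HAS3, was also highest in replicate 3 (106.8 CPM in siUAP1 and 99 CPM in control). Whether reads of CHTF8 entered the HAS3 count was not tested, so this order is uncertain for HAS3. What the replicate numbers stand for is not stated in the labels, and the mitochondrial share of the counts was 4.72%, 5.64% and 4.79% in siUAP1 replicates 1 to 3, against 4.45%, 6.02% and 4.23% in control replicates 1 to 3. Its part in these differences was not tested.

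**Figure D3:**
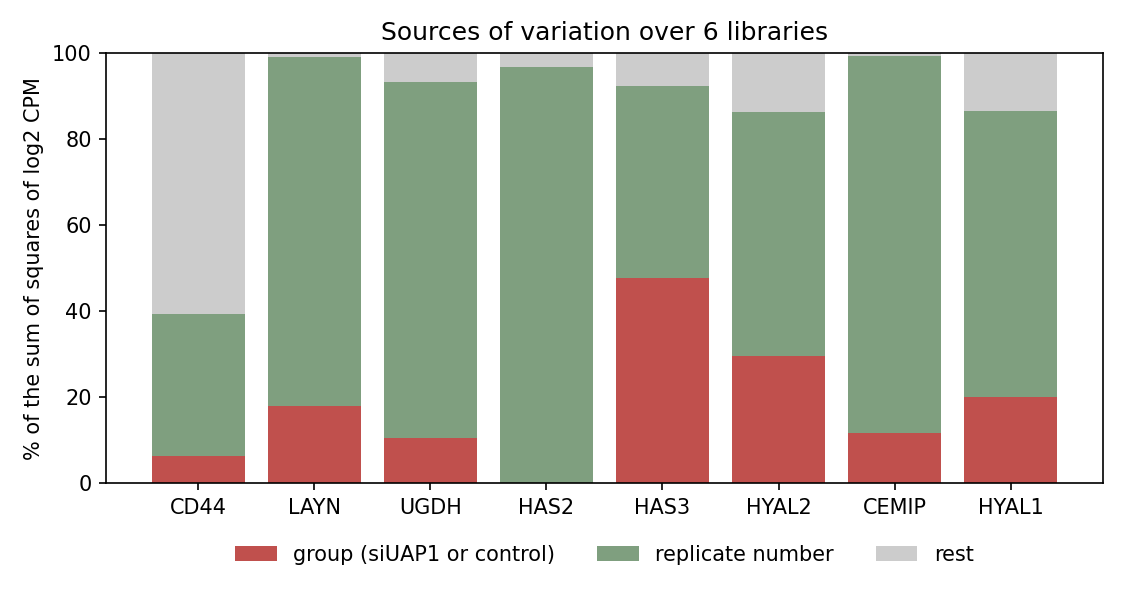
Share of the sum of squares of log2 CPM over 6 libraries (vertical axis, percent, from 0 to 100) that lay between siUAP1 and control (red), between the 3 replicate numbers (green) and in the rest (grey), for the 8 tested genes. The replicate number takes 96.6% for HAS2 and 87.7% for CEMIP, while most of the small variation of CD44 lies in the rest.

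The other genes of hyaluronan biology were read from lists of 79 genes in the table, UAP1 left aside, of which 55 could be tested. With the groups alone edgeR called 0 of the 55 (8 had an unadjusted p under 0.05), and DESeq2 called 1. With the block, 9 rose and 10 fell, so that 19 of 55 were called where 16.2% of all tested genes were, and the median log2 fold change was -0.022. The lists were chosen with earlier results of these data known, so this share is a description. None of the 19 passed with the groups alone, where their edgeR adjusted p ran from 0.29 (HK2) to 0.974 (HMMR), and the calls named below are those of the fit with the block. Of the 19, PTX3 moved most between the fits, to -0.67 with the groups alone.

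In nucleotide sugar supply, 1 of the 16 tested genes other than UAP1 rose and 2 fell, where 9.07% of all tested genes rose and 7.14% fell. HK2, a hexokinase of glucose entry, fell (log2 -0.37, SE 0.0519, edgeR adjusted p = 1.09e-05), with 201.3, 217.6 and 227.0 CPM in siUAP1 replicates 1 to 3, against 291.1, 255 and 289 CPM in control replicates 1 to 3. These groups did not overlap. GNPNAT1, the acetyltransferase of the UDP-N-acetylglucosamine pathway, fell slightly (-0.19), and SLC35D1, a carrier of nucleotide sugars into the endoplasmic reticulum, rose (0.28, adjusted p = 0.0106).

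Of the breakdown genes, CEMIP2, a membrane relative of CEMIP once named TMEM2 and known for degrading hyaluronan at the cell surface in mice, rose (log2 0.32, SE 0.0879, adjusted p = 0.0119). It had 19.6, 23.1 and 22.7 CPM in siUAP1 replicates 1 to 3, against 17.2, 17.1 and 18 CPM in control replicates 1 to 3, with no overlap of the groups. Unlike CEMIP it hardly differed between replicate numbers, which took 11.2% of its sum of squares. HYAL3, which shares exonic bases with NAA80 and IFRD2 on the same strand and is uncertain, was not called (0.34, SE 0.182).

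Only 3 of 8 receptor genes could be tested, and LYVE1 and TLR2 had 0 counts. ICAM1, an adhesion receptor reported to bind hyaluronan, rose (log2 0.36, SE 0.0504, adjusted p = 1.18e-05), with 165, 120.4 and 84.2 CPM in siUAP1 replicates 1 to 3, against 121.6, 95.1 and 69.1 CPM in control replicates 1 to 3. Its order over the replicate numbers was that of CEMIP and LAYN, with number 1 highest and number 3 lowest in both groups. PTX3, which fell, LRP1, which rose, and MET, which was not called, had the same order. HMMR, the receptor for hyaluronan-mediated motility and a mitotic spindle protein, fell by 0.18 on the log2 scale (SE 0.0503, adjusted p = 0.0164). TLR4 was not called (-0.09, SE 0.19).

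Among hyaluronan-binding matrix genes, 6 of 20 could be tested, 1 rose and 1 fell, where 9.07% of all tested genes rose and 7.14% fell. VCAN, which encodes the large hyaluronan-binding proteoglycan versican, rose (log2 0.45, SE 0.0618, adjusted p = 8.47e-06). It had 91, 90.9 and 35.3 CPM in siUAP1 replicates 1 to 3, against 60.1, 66.4 and 29.6 CPM in control replicates 1 to 3, so that replicate 3 was low in both groups, as for HAS2. PTX3, a pentraxin that helps to crosslink hyaluronan in the cumulus matrix of mice, fell (-0.79, SE 0.0693, adjusted p = 7.93e-09) and was abundant at 893.6 CPM in siUAP1 and 1418 CPM in control on average. PTX3 shares 71 exonic bases with VEPH1 on the opposite strand. TNFAIP6, ACAN and HAPLN1, also of this list, were too low to test.

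CD44 itself was not called, and 7 of the 15 tested genes among its partners and sheddases were called, 4 upward and 3 downward. Over all tested genes 16.2% were called, 9.07% upward and 7.14% downward. The list was chosen with earlier results of these data known, so the count is a description. The surface proteases ADAM10 (log2 0.29, SE 0.0473) and ADAM17 (0.31, SE 0.0629), both known for shedding CD44, rose without overlap of the groups. The protease gene MMP14 of the same list was not called (-0.03, SE 0.0466), and MMP9 was too low to test. ADAM10 had 159.7, 171.9 and 156 CPM in siUAP1 replicates 1 to 3, against 135, 136.6 and 127.6 CPM in control replicates 1 to 3. ADAM17 shares 12.3% of its exonic bases with IAH1 on the opposite strand and is uncertain. NF2, which encodes merlin, an inhibitor of CD44 signalling, fell (-0.32, SE 0.0483, adjusted p = 2.49e-05). HBEGF, an EGF receptor ligand that can be carried by CD44, fell (-0.64, SE 0.0551, adjusted p = 5.44e-09), with 81, 56.2 and 72.2 CPM in siUAP1 replicates 1 to 3, against 140.2, 83.4 and 106 CPM in control replicates 1 to 3. These groups did not overlap either.

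Of 9 tested factors that act on CD44 splicing, 3 fell and 0 rose, where 7.14% of all tested genes fell and 9.07% rose. The 3 were HNRNPM (log2 -0.23, SE 0.0535), HNRNPA1 (-0.20, SE 0.0501) and TRA2B (-0.17, SE 0.0465). With the groups alone, 0 of the 9 had an unadjusted edgeR p under 0.05. ESRP1, the epithelial factor that promotes variant exons, had too few counts to test. Its relative ESRP2 was at 0.455 CPM in siUAP1 and 0.672 CPM in control on average. ESRP2 was not called (log2 -0.59, SE 0.459, 95% interval -1.54 to 0.35, edgeR adjusted p = 0.445).

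**Figure D4:**
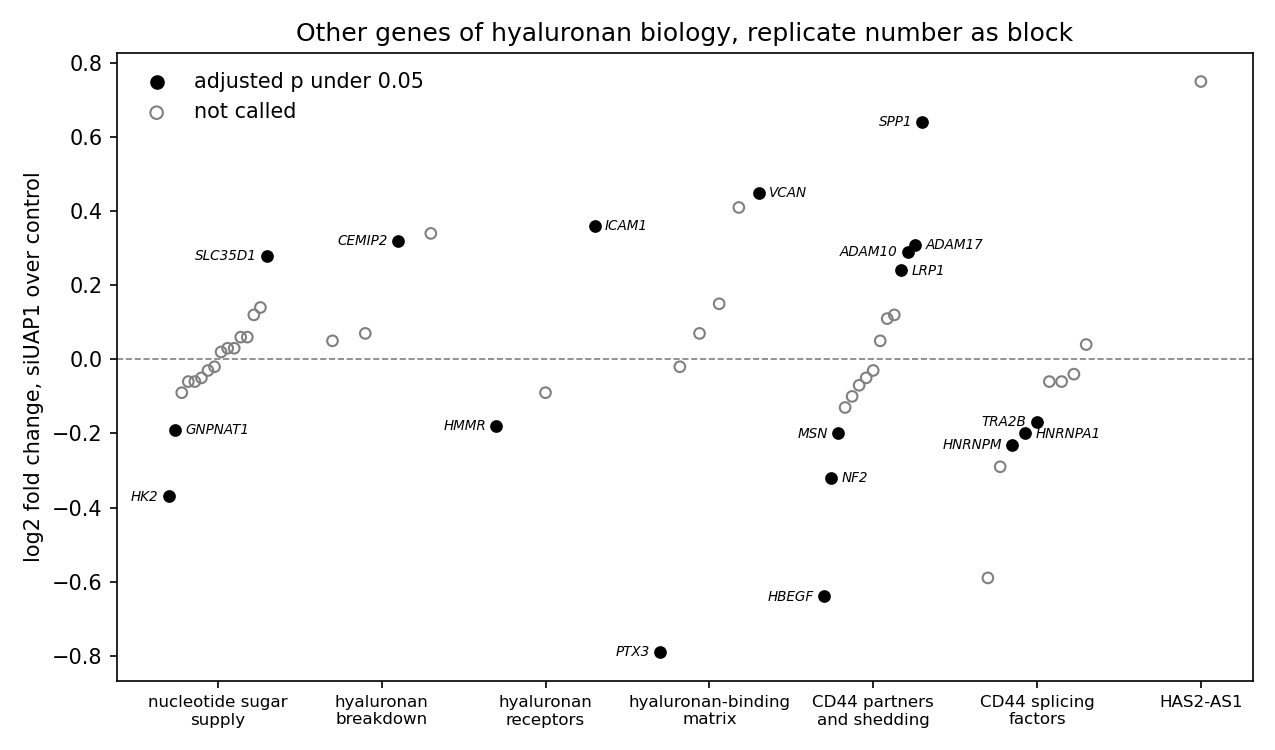
Log2 fold change of siUAP1 over control (vertical axis, edgeR with the replicate number as a block) of the other tested genes of hyaluronan biology, 1 of them not drawn, grouped by list along the horizontal axis and sorted within each list. Filled points with names had an adjusted p under 0.05, and PTX3 and HBEGF lie lowest among them.

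The genes whose pattern over the 6 libraries was most like that of CD44 were LYSMD4 (Pearson r 0.967 on log2 CPM), ZDHHC23 (0.962), RAB11FIP3 (0.947), ATP8B1 (0.946) and KIAA1551 (0.943). They were taken from 10340 protein-coding genes of at least 5 CPM on average, of which 23 had an r over 0.9, and the values share the libraries and their depth, so the likeness is a description.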

How the data were processed

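RNA of 3 siUAP1 and 3 control libraries of ES2 cells was sequenced. The authors deposited raw counts per gene and FPKM, whose implied library sizes were 0.988 to 1.03 times the count totals. Named in the submitters' processing notes are GRCh38.p12 and DESeq2. Aligner, counter and strand setting: not given in the sources used here. Start and end of all 58735 genes equalled those of GENCODE 29.

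Counts were tested with edgeR 4.0.16 (R 4.3.3): TMM, filterByExpr with a minimum count of 10, the quasi-likelihood test of siUAP1 against control, and p-values adjusted by Benjamini-Hochberg over 15768 genes (threshold 0.05). CPM use TMM-adjusted totals; sums of squares, single-pair differences and r use log2 CPM with a prior count of 2. The procedure was tested on simulated data.

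Replicate numbers come from the titles, and library names share a code within each number. Same-numbered libraries' deviations from their group means correlated at 0.552, 0.454 and 0.584 over tested genes, all above the 0.1 set as minimum, so the numbers were taken to pair the libraries.

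The members and lists were chosen with earlier results of these data known. Named were the 9 genes, UAP1, list genes called with the groups alone, up to 4 per list called with the block (smallest p), HMMR, CEMIP2 and VCAN, and the 5 genes most like CD44; others named, such as TLR4, HYAL3, ESRP2 and HAS2-AS1, were chosen after their values were seen. Of 82 list symbols, 80 matched, and 1 gene of the breakdown list is not reported here. As alternatives, RLE or plain totals replaced TMM, filters were changed, the block was added, DESeq2 1.42.0 was run, limma 3.58.1 was run on log2 of FPKM plus a pseudocount of 1 (also unfiltered) or 0.1, a scale that understates low genes, and each library or pair was left out.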

Additional observations from a re-analysis of the deposited data

How the results depend on the processing

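Over all tested genes, 17 were called with the groups alone, and 2556 with the replicate block, 2539 with the block and RLE scaling, 1311 with the block in DESeq2, 165 with DESeq2 alone, 273 with no filter beyond 1 count, and 2, 3 and 1 with limma on log2(FPKM + 1), on log2(FPKM + 0.1) and on log2(FPKM + 1) without a filter. Leaving out 1 library left 1 to 3, and leaving out a pair within the block gave 2204, 1987 and 1195 without pairs 1, 2 and 3. Of the 8 hyaluronan genes, 0 were called with the groups alone, 1 (CEMIP) without a filter and 2 with the block, with RLE scaling and the block, with DESeq2 and the block, and without pair 1, 2 or 3. Leaving out 1 library called 0 of them. Of the other hyaluronan genes, 0 were called with the groups alone, 19 with the block, 19 with the block and RLE scaling, 15 with the block in DESeq2, 1 with DESeq2 alone and 3 without a filter; leaving out a pair within the block gave 11 to 18, and leaving out 1 library 0. The log2 fold change of HAS2 (-0.62 to 0.16 over the left-out libraries) turned to 0.16 without siUAP1 replicate 3, 0.08 without control replicate 1 and 0.09 without control replicate 2, and that of CD44 (-0.03 to 0.05) to -0.02 without control replicate 1 and -0.03 without pair 1. CEMIP, LAYN, HYAL1 and HYAL2 stayed positive and HAS3 negative under every alternative that gave a value, and UGDH came down to 0.00 without siUAP1 replicate 1; HAS3 and HYAL1 were below the mean CPM and mean FPKM filters, and HYAL1 got no adjusted p from DESeq2 with the block. The block changed no other call among the 8 genes than those of CEMIP and LAYN. HAS1 had 0 counts and HYAL1 at most 22 in a library, which limits what could be detected for them.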
